A study of Mus musculus with 6 samples.

Results

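The transcripts of 31 genes of fatty acid uptake and beta-oxidation were read in mouse gastrocnemius, the large calf muscle. The genes were taken by symbol from a list given for this work, and all 31 were present among 35491 named entries and passed the filter on low values, which left 23312 genes for testing. The smallest of them in any library had 48 reads. The mice were males on the C57BL/6J background, 3 Control and 3 Ogg1Tg, aged 20 weeks, fed chow and otherwise untreated. Ogg1Tg mice carry a human OGG1-1a transgene whose protein, a DNA repair enzyme that removes oxidised guanine, is directed to mitochondria by a fused signal. The CMV/AG promoter that drives the transgene is not muscle specific, and the labels describe the comparison mice only as Control mice of the same background. The labels do not tie mice to litters or days, so p-values measure the spread between these 6 samples.

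Muscle takes up fatty acids that lipoprotein lipase releases in the capillaries, or frees them from its own droplets, and joins them to coenzyme A. The carnitine shuttle carries the acyl groups into mitochondria, where each turn of the beta-oxidation spiral removes an acetyl unit through a dehydrogenase, a hydratase, a second dehydrogenase and a thiolase. Electrons from the first dehydrogenase pass through electron transfer flavoprotein to the respiratory chain, and the nuclear receptors PPAR-alpha and PPAR-delta, which sense fatty acids, drive many of these genes. Oxidative fibres hold more of this machinery than glycolytic fibres.

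None of the 31 genes passed the test between Ogg1Tg and Control muscle. Deposited values were gene reads divided by 1 factor per library and are called scaled reads here. Fold changes are limma fits on log2(scaled reads + 1), Ogg1Tg minus Control, and a gene was called at an adjusted p under 0.05 over all genes tested. The fit called 127 of 23312 genes (0.545%), and the lowest adjusted p of the 31 was 0.297, for Cpt1a. At an unadjusted p under 0.05, which 11.0% of all genes reached, there were 3 of the 31: Cpt1a, higher in Ogg1Tg muscle, and Acadm and Acads, lower. The 2 groups overlapped for all 31 genes, whereas 18.3% of all genes had groups that did not overlap. The number of these genes called was also 0 in each of 19 alternative fits, among them the fit without Ogg1Tg replicate 3 (1.86% of all genes called) and DESeq2 on recovered reads (3.08%), with a lowest adjusted p of 0.0784, for Cpt1a with DESeq2.

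The fitted value lay below 0 for 26 of the 31 genes, against 52.8% of all genes. Their median log2 fold change was -0.24, with a median of -0.02 over all genes and -0.13 over genes with a mean of at least 1000 scaled reads, of which 3960 of 5528 were below 0. Markers outside the pathway also lay below 0: 12 of 12 fast fibre markers (median -0.39), 12 of 12 skeletal muscle markers (median -0.28) and 11 of 12 endothelial markers (median -0.21), none of them called. The endothelial list was also lowest in Control replicate 1 and Ogg1Tg replicates 2 and 3, with median differences from the Control mean of -0.22, 0.08 and 0.08 in Control replicates 1 to 3 and -0.10, -0.17 and -0.25 in Ogg1Tg replicates 1 to 3. Scaling each library to an equal total moved the median of all genes to 0.22 and that of the 31 to 0.01, with 14 below 0 (28.7% of all genes). Relative to all genes the 31 then lay at -0.21, as they did on the deposited scale. Without Ogg1Tg replicate 3 the median of the 31 was -0.09 with 18 below 0 (55.5% of all genes), and without Ogg1Tg replicate 1 it was -0.46 with 27 below 0 (52.4% of all genes). An unadjusted limma p under 0.05 was reached by 16 of the 31 without Ogg1Tg replicate 1 and by 2 without Ogg1Tg replicate 3. The share of all genes was not counted for these 2 fits. Without Ogg1Tg replicate 1 the lowest limma adjusted p of the 31 was 0.18. With all 6 libraries, the 95% intervals of 25 of the 31 genes lay within 1 log2 unit on both sides of 0. Those of Lpl, Acadm, Ppara and Ucp3 reached below -1, and those of Angptl4 and Cpt1a reached above 1.

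**Figure D1:**
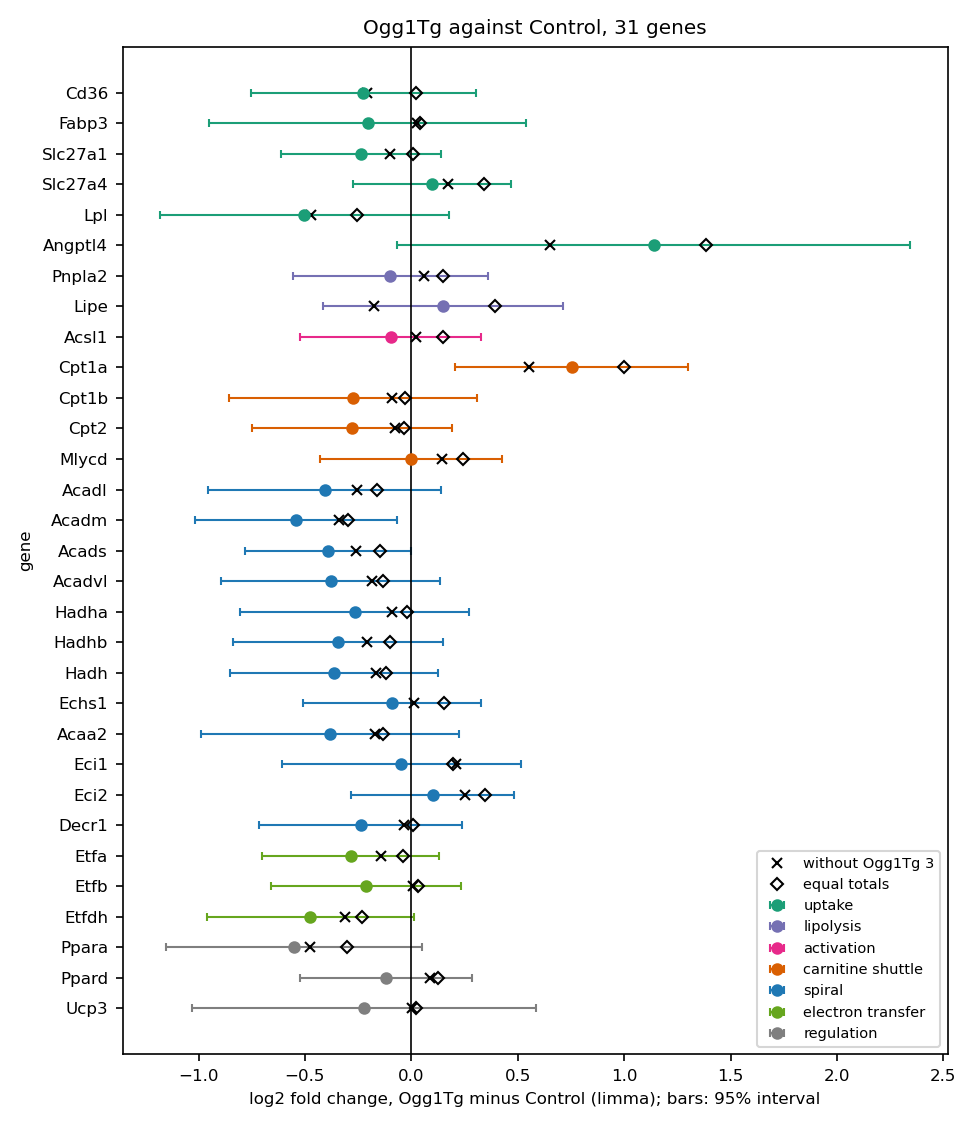
Fitted log2 fold change of each of the 31 genes, Ogg1Tg minus Control, with 95% intervals, coloured by step, and the fitted value without Ogg1Tg replicate 3 (crosses) and after scaling to equal totals (diamonds). The intervals of 3 genes leave out 0 (Cpt1a, Acadm and Acads), and Cpt1a and Angptl4 lie farthest to the right.

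The spread among the Control libraries was read beside the fitted changes. A range of 3 libraries and a difference of group means are unlike measures, and the range was the larger for most of all genes. The size of the fitted change was smaller than the log2 range of the 3 Control libraries for 26 of the 31 genes, as for 67.8% of all genes. That Control range had a median of 0.40 over the 31 genes, 0.43 over all genes and 0.18 over genes with a mean of at least 1000. Control replicate 1 was the lowest Control library for 25 of the 31 genes (38.7% of all genes), and Ogg1Tg replicate 1 was the highest Ogg1Tg library for 27 (30.2% of all genes). Both held for 24 genes (12.3% of all genes), and for 25 after scaling to equal totals (10.1% of all genes). For 21 of the 31 on the deposited scale, Control replicate 1 and Ogg1Tg replicates 2 and 3 all lay below the other 3 libraries. This order, with Control replicates 2 and 3 and Ogg1Tg replicate 1 above, was found in 5.4% of all genes. The 10 genes without that order were Slc27a4, Angptl4, Lipe, Cpt1a, Mlycd, Eci1, Eci2, Etfb, Ppard and Ucp3. Whether the order held after scaling to equal totals was not counted. The lowest Ogg1Tg library was replicate 3 for 25 of the 31 on the deposited scale, and replicate 2 for 28 after scaling to equal totals.

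**Figure D2:**
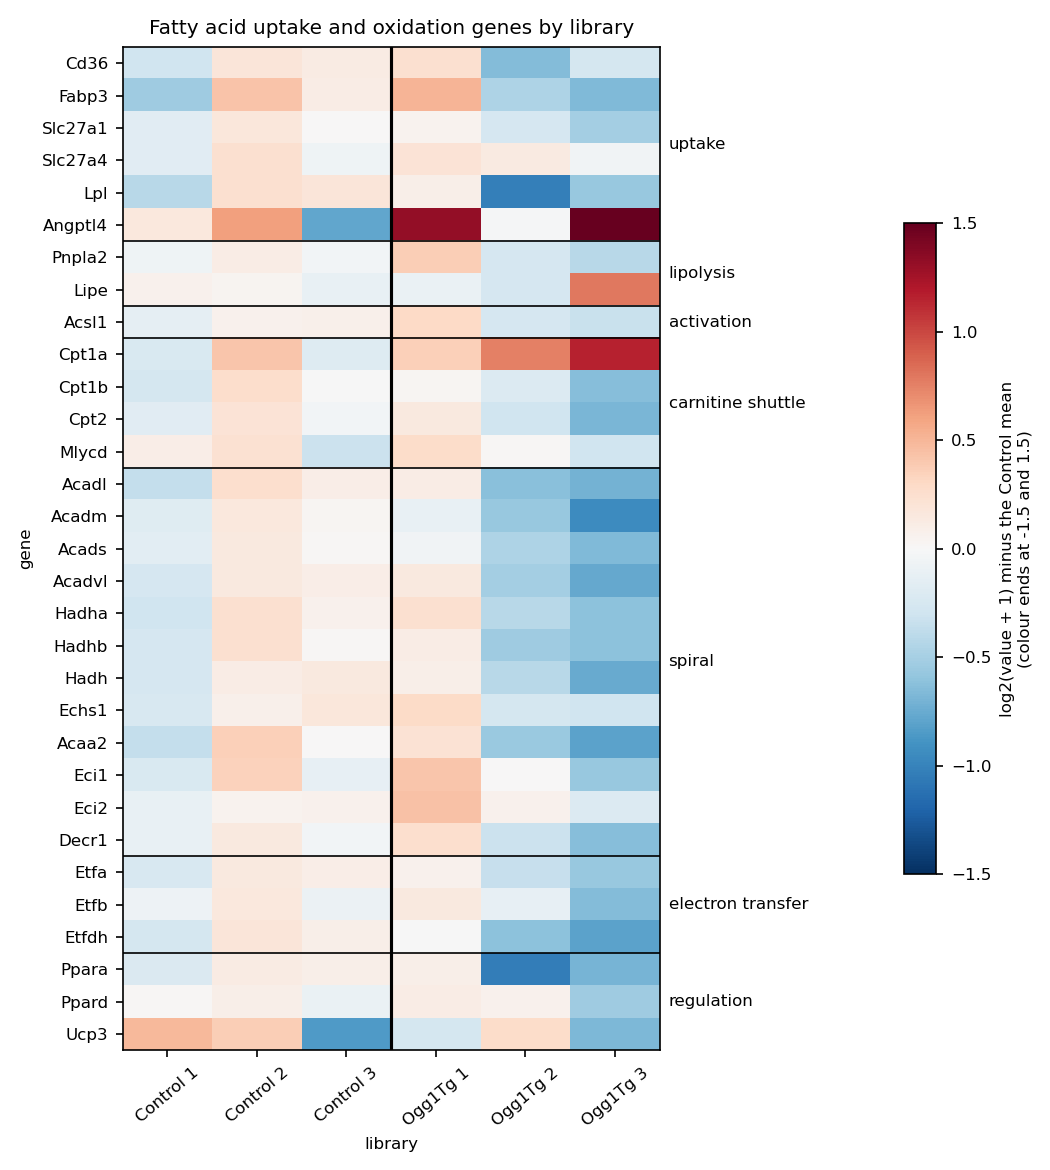
Difference of log2(scaled reads + 1) from the Control mean for each gene (rows, grouped by step) in each library (columns), on a colour scale that ends at -1.5 and 1.5. Control replicate 1 and Ogg1Tg replicates 2 and 3 are mostly blue, and Control replicate 2 and Ogg1Tg replicate 1 mostly red, with Angptl4, Lipe and Cpt1a red in Ogg1Tg replicate 3.

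The median difference of the 31 genes from their Control means was -0.22, 0.18 and 0.01 on the log2 scale in Control replicates 1, 2 and 3. In Ogg1Tg replicates 1, 2 and 3 it was 0.14, -0.30 and -0.62. As a share of all reads in named genes, which does not depend on the scaling, the 31 genes took 0.204%, 0.296% and 0.277% in Control replicates 1 to 3. The share was 0.314%, 0.182% and 0.264% in Ogg1Tg replicates 1 to 3, so that Ogg1Tg muscle held both the highest and the lowest share. Group means were 0.259% ± 0.0487 and 0.254% ± 0.0670 (SD, n = 3).

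Depth in named genes was 45189860 to 56126407 reads, and the 12 skeletal muscle markers were detected in all 6 libraries, with Ttn and Neb the highest of them. Ogg1Tg replicate 3 stood apart. Its rank correlation with the other libraries over genes was at most 0.954, while each of the others reached at least 0.980 with another library, and its deposited values summed to 45456582 against 62344492 to 72209954 elsewhere. All 12 lymphocyte markers, 11 of 12 macrophage markers and 10 of 12 adipocyte markers were highest in it. The lymphocyte markers summed to 15919 scaled reads there and to 230 to 355 in the other 5 libraries. Fewer cells of a type and less RNA per cell cannot be told apart in these bulk samples.

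Myh2 and Myh1 had the same order of libraries as the 21 genes, and these myosins, like Mb, were looked up after the values had been seen. Myh2, the myosin of type IIa fibres, measured 264820, 399513 and 414859 scaled reads in Control and 407436, 200042 and 206847 in Ogg1Tg replicates 1, 2 and 3. Myh1, the myosin of type IIx fibres, ranged from 371165 to 500494 in Control, at 545234 in Ogg1Tg replicate 1, and at 272869 and 227206 in Ogg1Tg replicates 2 and 3. The type IIb myosin Myh4 did not have that order and was highest in Control replicate 1, at 5498760, and lowest in Ogg1Tg replicate 3, at 2402910. Myoglobin, Mb, the oxygen store of oxidative muscle, measured 26217, 42743 and 39151 in Control and 23409, 14900 and 6392 in Ogg1Tg muscle, without overlap between the groups (log2 fold change -1.43 ± 0.42 SE, limma adjusted p = 0.252). Over the 19 alternative fits the adjusted p of Mb ran from 0.0229, with DESeq2, to 0.695. The Mb value in Ogg1Tg replicate 1 was below that in Control replicate 1, so Mb did not have the order either. The slow fibre list did not follow the 31 genes: its median log2 fold change was 0.84, none of its 10 genes was called, and Control replicate 1 was its lowest library. Of those 10 genes, 6 reached an unadjusted p under 0.05 (11.0% of all genes) and 5 had groups that did not overlap (18.3% of all genes).

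All 6 hepatocyte markers were higher in Control replicate 1 and Ogg1Tg replicates 2 and 3 than in the other 3 libraries. Their summed level was 1624, 292 and 101 scaled reads in Control replicates 1 to 3, and 179, 1421 and 1657 in Ogg1Tg replicates 1 to 3, at most 0.00364% of the total. With that sum as a covariate in the limma fit, the median log2 fold change of the 31 genes was -0.13 with 20 below 0 (52.4% of all genes), and 0 were called (0.592% of all genes). This covariate was added after the values were seen. It splits the libraries as 21 of the 31 genes do, so the fit cannot separate the marker level from the order of those genes. The part of fibre type and of the endothelial, hepatocyte, lymphocyte and adipocyte markers in the order of the libraries was not tested.

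**Figure D3:**
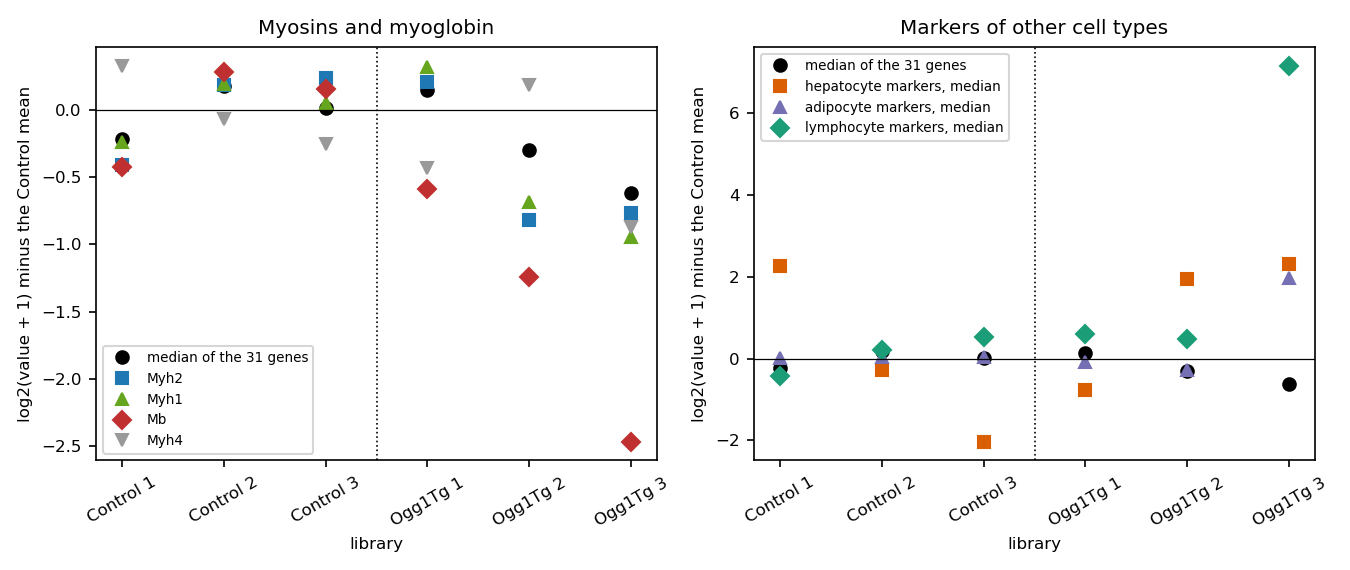
Differences of log2(scaled reads + 1) from the Control mean in each library. On the left, the median of the 31 genes is low in Control replicate 1 and Ogg1Tg replicates 2 and 3 together with Myh2 and Myh1, while Myh4 is highest in Control replicate 1. On the right, the median of the hepatocyte markers lies between 1.94 and 2.30 in the same 3 libraries, and the lymphocyte and adipocyte medians are highest in Ogg1Tg replicate 3.

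The start regions of 26 of the 31 genes were found in RefSeq's table of promoters (GRCm38.p6), as 30 windows from 250 bases before to 50 after a start. Cpt1b, Acaa2, Decr1, Angptl4 and Lpl had no entry. Motifs were searched on both strands in these windows and in all 32851 windows of the table. The direct repeat that PPAR binds with its partner RXR, written as AGGTCA, any 1 base and AGGTCA again, was in 0 of 30 windows and in 0.0396% of all. TCAAGGTCA, the extended half-site of oestrogen-related receptors, was in 0 of 30 and in 0.423% of all. AAGGTCA, which is contained in it, was in 1 window, that of Acadm, and in 4.72% of all. TGATGNAAT, the composite element of C/EBP and ATF factors, was also in 1, that of Echs1, and in 0.965% of all. The GC box GGGCGG was in 21 of the 30 windows against 35.7% of all, CCAAT was in 12 against 37.4%, and TATAAA was in 0 against 13.6%. A match is a run of letters and not a measured binding site, and a window without one says nothing of the factor.

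Stretches before the start are shown for the pair Hadha and Hadhb, which start on either side of 1 short gap and were high and low in the same libraries, for the 2 genes whose windows held a rare motif, and for Cpt1a, the gene with the lowest p. The motif in each is in capitals, and each reads 5′ to 3′ on the gene's own strand. The first is the whole gap of 85 bases between the starts of Hadha and Hadhb, with 2 GC boxes (chr5:30155163-30155247, plus strand). The Acadm stretch (chr3:153944644-153944893, minus strand) holds AAGGTCA as its reverse complement. The Echs1 stretch (chr7:140116477-140116671, minus strand) holds TGATGNAAT, and the Cpt1a stretch (chr19:3323051-3323284, plus strand) holds 2 GC boxes as their reverse complement. The Cpt1a stretch lies before a RefSeq start, but within the gene as GENCODE M21 places it (chr19:3322334-3385733).
Hadha to Hadhb gap: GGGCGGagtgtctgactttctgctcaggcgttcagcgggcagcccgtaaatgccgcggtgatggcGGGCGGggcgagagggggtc
Acadm: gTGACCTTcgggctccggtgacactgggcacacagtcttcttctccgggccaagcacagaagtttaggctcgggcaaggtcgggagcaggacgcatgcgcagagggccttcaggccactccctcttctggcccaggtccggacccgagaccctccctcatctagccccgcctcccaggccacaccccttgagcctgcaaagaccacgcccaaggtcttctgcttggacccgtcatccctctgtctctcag
Echs1: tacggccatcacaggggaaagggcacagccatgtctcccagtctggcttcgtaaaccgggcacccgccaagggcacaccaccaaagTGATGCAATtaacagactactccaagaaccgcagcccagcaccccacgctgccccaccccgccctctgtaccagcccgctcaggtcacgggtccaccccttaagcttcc
Cpt1a: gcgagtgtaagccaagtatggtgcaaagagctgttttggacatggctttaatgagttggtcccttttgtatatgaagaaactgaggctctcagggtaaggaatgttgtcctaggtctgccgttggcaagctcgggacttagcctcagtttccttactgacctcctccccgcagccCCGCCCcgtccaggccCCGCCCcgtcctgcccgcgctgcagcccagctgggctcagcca

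Uptake genes carry fatty acids to and across the cell membrane, and none of the 6 was called. Lpl, lipoprotein lipase, had the highest level per length of the 31 in Control muscle, at 8874 ± 2050 scaled reads per kilobase (SD, n = 3). Its scaled reads were 26821, 42169 and 40564 in Control and 38015, 17584 and 24153 in Ogg1Tg replicates 1, 2 and 3. The lowest Control and the highest Ogg1Tg library overlapped, and the log2 fold change was -0.50 ± 0.30 (SE, limma adjusted p = 0.584). Angptl4, a secreted inhibitor of lipoprotein lipase and a PPAR target, measured 121, 166 and 62.7 in Control and 270, 107 and 472 in Ogg1Tg replicates 1, 2 and 3. Ogg1Tg replicates 1 and 3 lay above every Control library and Ogg1Tg replicate 2 among them. Its log2 fold change, the largest of the 31, was 1.14 ± 0.53 (SE, limma adjusted p = 0.476). It was 0.65 without Ogg1Tg replicate 3, the library with the high adipocyte and lymphocyte markers. The part of those cells in the Angptl4 values was not tested.

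Cd36, the membrane fatty acid translocase, measured 10198, 14166 and 13610 in Control and 14774, 7961 and 10456 in Ogg1Tg muscle. Fabp3, the fatty acid binding protein of muscle cytosol, measured 3733, 7288 and 5860 in Control and 7738, 3932 and 3419 in Ogg1Tg muscle. Both were highest in Ogg1Tg replicate 1, and the fitted log2 fold changes of -0.23 ± 0.23 and -0.21 ± 0.33 (SE) did not exceed the spread. Of the 2 fatty acid transport proteins, Slc27a1 gave -0.24 ± 0.17 and Slc27a4 gave 0.10 ± 0.16 (SE). Slc27a4, at 108 ± 16.2 scaled reads per kilobase in Control muscle (SD, n = 3), stood well below Slc27a1 at 1431 ± 168.

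The 2 lipases of stored fat overlapped between the groups. Pnpla2, which encodes adipose triglyceride lipase and takes the first fatty acid from triglyceride, measured 8588, 9715 and 8727 in Control and 11636, 7550 and 6747 in Ogg1Tg muscle. Lipe, hormone-sensitive lipase, measured 953, 936 and 846 in Control and 851, 765 and 1579 in Ogg1Tg muscle. Ogg1Tg replicate 3 alone stood above the rest for Lipe, which adipocytes express at a high level. The adipocyte markers other than Car3, which muscle also makes, summed to 13967 scaled reads in that library and to 4758 to 6748 in the other 5. The log2 fold change of Lipe was 0.15 ± 0.25 (SE) with that library and -0.17 without it. The part of adipocytes in the Lipe values was not tested. Acsl1, the acyl-CoA synthetase that activates long-chain fatty acids, measured 12516, 14442 and 14506 in Control and 16916, 11558 and 10947 in Ogg1Tg muscle (log2 fold change -0.10 ± 0.19 SE, limma adjusted p = 0.872).

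**Figure D4:**
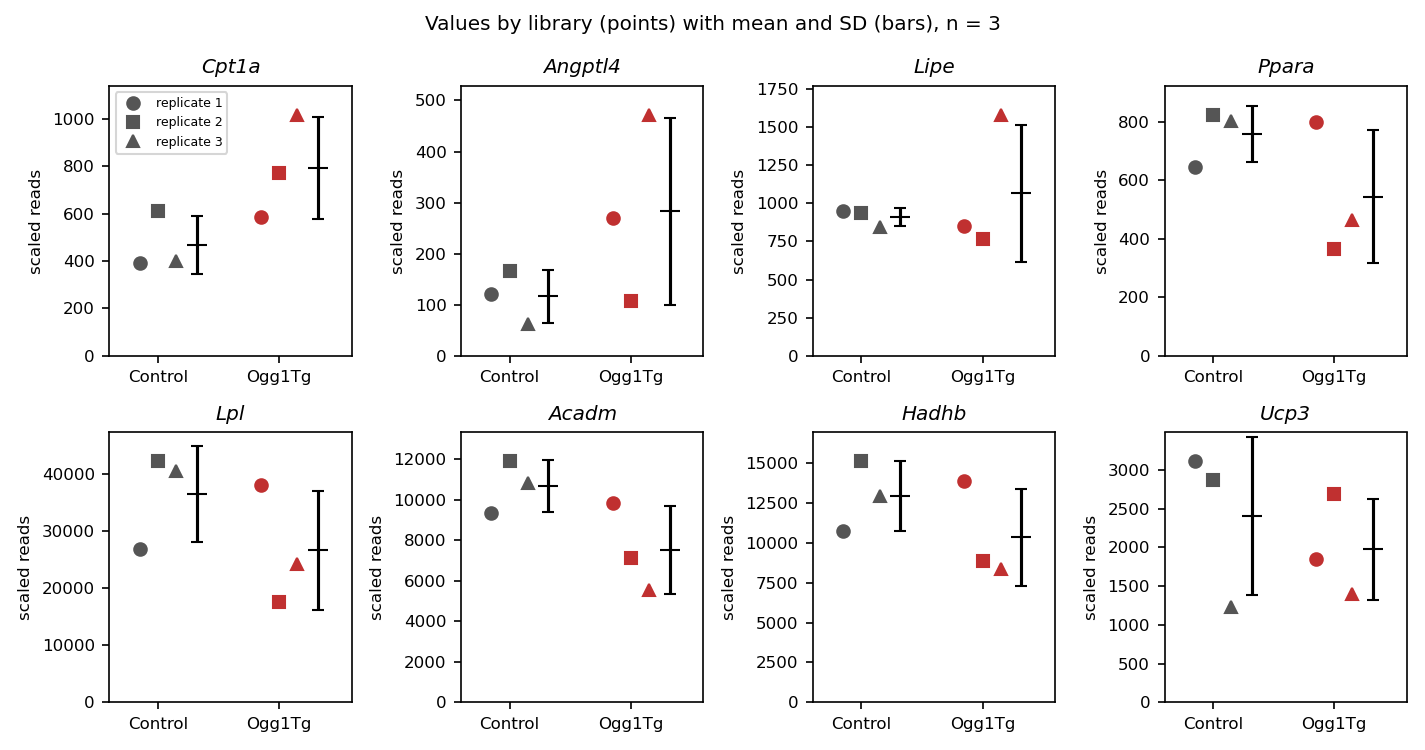
Scaled reads of 8 genes by library (points, 1 marker shape per replicate number) with the mean and SD of each group beside them (n = 3). Cpt1a is higher in most Ogg1Tg libraries, Angptl4 and Lipe are highest in Ogg1Tg replicate 3, and the groups overlap in every panel.

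In the carnitine shuttle, Cpt1a was the gene with the lowest p of the 31. It encodes the carnitine palmitoyltransferase form that liver and many other tissues use in the outer mitochondrial membrane, whereas Cpt1b encodes the muscle form. Cpt1a measured 391, 610 and 401 scaled reads in Control and 586, 770 and 1016 in Ogg1Tg replicates 1, 2 and 3. Control replicate 2 lay just above Ogg1Tg replicate 1, and the other values did not cross. The log2 fold change was 0.75 ± 0.24 (SE; unadjusted p = 0.0124, limma adjusted p = 0.297) and 0.55 without Ogg1Tg replicate 3. Over the 19 alternative fits it stayed above 0, from 0.55 to 1.00, with adjusted p from 0.0784 to 0.683.

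Cpt1b measured 125, 180 and 149 in Control and 152, 130 and 95.6 in Ogg1Tg muscle (log2 fold change -0.27 ± 0.26 SE, limma adjusted p = 0.726). Its level is uncertain, because 81.38% of its exonic length in GENCODE M21 also belongs to Gm44502, a readthrough transcript on the same strand that has no row in these files, and counting tools can set aside reads shared by 2 genes. Per kilobase, Cpt1a stood above Cpt1b in every library, by 2.10, 2.27 and 1.81 times in Control and by 2.58, 3.98 and 7.13 times in Ogg1Tg replicates 1, 2 and 3. This ratio, which no library factor can change and which was formed after the values had been seen, did not overlap between the groups (2-sided exact permutation p = 0.1, the smallest that 3 against 3 allow). Per length against Cpt2, the inner membrane transferase, the Cpt1a ratio was 0.068, 0.0814 and 0.0636 in Control and 0.0817, 0.146 and 0.253 in Ogg1Tg muscle, so that the nearest libraries differed little.

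Cpt2 itself measured 2556 ± 349 in Control and 2152 ± 625 in Ogg1Tg muscle (SD, n = 3), with a log2 fold change of -0.28 ± 0.21 (SE). Mlycd, malonyl-CoA decarboxylase, which removes the natural inhibitor of the outer transferase, measured 1969 ± 373 and 1969 ± 380. Its fitted change was -0.00 ± 0.19 (SE), with a 95% interval from -0.43 to 0.43.

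All 12 genes of the spiral failed the test, 11 with a fitted value below 0 and a median of -0.35, which was -0.17 without Ogg1Tg replicate 3. Their median difference from the Control means was -0.24, 0.16 and 0.04 in Control replicates 1 to 3 and 0.18, -0.44 and -0.65 in Ogg1Tg replicates 1 to 3. On the deposited scale, Ogg1Tg replicate 1 thus lay above all 3 Control libraries in this measure, and replicates 2 and 3 below them.

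The 4 acyl-CoA dehydrogenases begin each turn, each for a range of chain lengths. Acadm, for medium chains, measured 9351, 11897 and 10810 in Control and 9840, 7153 and 5535 in Ogg1Tg replicates 1, 2 and 3. Only Ogg1Tg replicate 1 reached the Control range. The log2 fold change was -0.54 ± 0.21 (SE; unadjusted p = 0.0297, limma adjusted p = 0.386), and it remained below 0 in all 19 alternative fits, from -0.76 to -0.29. Acads, for short chains, measured 1193, 1476 and 1346 in Control and 1281, 970 and 844 in Ogg1Tg muscle. Its split was the same on the deposited scale (log2 fold change -0.39 ± 0.17 SE, limma unadjusted p = 0.0498, limma adjusted p = 0.453).

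Acadl, for long chains, gave -0.41 ± 0.24 and Acadvl, the membrane-bound enzyme for very long chains, -0.38 ± 0.23 (log2 fold change ± SE). Acadvl measured 4464, 5889 and 5702 in Control and 5859, 3729 and 3118 in Ogg1Tg muscle. In GENCODE M21 42.85% of its exonic length overlaps Dvl2 on the opposite strand, and the sources used here do not say whether the counting used strand. Dvl2 measured 358 ± 89.0 in Control and 363 ± 24.1 in Ogg1Tg muscle (SD, n = 3).

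Hadha and Hadhb encode the alpha and beta subunits of the trifunctional protein, which carries out the last 3 steps for long chains. Hadha lies on the minus strand of chromosome 5 from 30118304 to 30155162, and Hadhb on the plus strand from 30155248 to 30184593 (GRCm38). Hadha measured 10046, 14627 and 12935 in Control and 14618, 9263 and 8061 in Ogg1Tg muscle. Hadhb measured 10745, 15087 and 12926 in Control and 13837, 8878 and 8337 in Ogg1Tg muscle. The pair was thus high and low in the same libraries. Per length, the Hadha to Hadhb ratio was 0.476, 0.494 and 0.509 in Control and 0.538, 0.531 and 0.492 in Ogg1Tg replicates 1 to 3, with overlap (2-sided exact permutation p = 0.3). Log2 fold changes were -0.27 ± 0.24 for Hadha and -0.34 ± 0.22 for Hadhb (SE).

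For shorter chains, Hadh, the hydroxyacyl-CoA dehydrogenase, gave -0.36 ± 0.21, and Acaa2, a mitochondrial thiolase, gave -0.38 ± 0.27 (log2 fold change ± SE). Acaa2 ranged from 2603 to 4251 scaled reads in Control and from 1914 to 3860 in Ogg1Tg muscle. Echs1, the hydratase of short chains, measured 2854 ± 405 in Control and 2710 ± 653 in Ogg1Tg muscle (SD, n = 3), and its fitted change of -0.09 ± 0.18 (SE) was above 0 after scaling to equal totals, at 0.16. The remaining 3 genes encode auxiliary enzymes for unsaturated chains. Eci1 and Eci2, the enoyl-CoA isomerases, gave -0.05 ± 0.25 and 0.10 ± 0.17 and Decr1, the dienoyl-CoA reductase, -0.24 ± 0.21 (log2 fold change ± SE). Eci2 was the only spiral gene above 0, and without Ogg1Tg replicate 3 Eci1 and Echs1 were also above, at 0.21 and 0.01.

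Electron transfer was represented by 3 genes, all with a fitted value below 0 and none called. Etfdh, the oxidoreductase that passes electrons on to ubiquinone, measured 4809, 6552 and 6149 in Control and 5763, 3773 and 3313 in Ogg1Tg replicates 1, 2 and 3. On the deposited scale, Ogg1Tg replicate 1 lay within the Control range and the other Ogg1Tg libraries below it (log2 fold change -0.48 ± 0.21 SE, limma adjusted p = 0.464). Etfa and Etfb, the subunits of the flavoprotein, gave -0.29 ± 0.18 and -0.21 ± 0.20 (SE), and Etfb was at 0.01 without Ogg1Tg replicate 3. Etfb shares 53.01% of its exonic length with Gm45233 on the same strand, which has no row in these files, so its level is uncertain.

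The 3 genes of regulation all had a fitted value below 0, with a median of -0.22, and none was called. Ppara, which encodes PPAR-alpha, measured 646, 822 and 801 in Control and 799, 365 and 465 in Ogg1Tg replicates 1, 2 and 3. On the deposited scale, Ogg1Tg replicate 1 lay within the Control range, and replicates 2 and 3 lay below all Control libraries (log2 fold change -0.55 ± 0.27 SE, limma adjusted p = 0.490). Ppard, which encodes PPAR-delta, measured 1844 ± 119 in Control and 1728 ± 397 in Ogg1Tg muscle (SD, n = 3) and stood above Ppara per length, at 1155 ± 74.2 against 300.4 ± 38.2 scaled reads per kilobase in Control. Ucp3, the uncoupling protein of muscle mitochondria and a PPAR target, measured 3111, 2866 and 1231 in Control and 1848, 2686 and 1395 in Ogg1Tg muscle. Control replicate 3, and not Control replicate 1, was its lowest library. Its Control spread was the widest beside that of Angptl4, and its log2 fold change was -0.22 ± 0.36 (SE).

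Per length, the 31 genes spanned a wide range in Control muscle. Lpl, Fabp3 at 6837 ± 2173 and Hadhb at 6317 ± 1062 scaled reads per kilobase (SD, n = 3) led, and their ranges overlapped. Acadm followed at 5220 ± 624 and Cd36 at 4674 ± 793. At the low end were Angptl4 at 35.2 ± 15.7 and Cpt1b at 52.3 ± 9.64, with overlapping ranges, and Cpt1a and Slc27a4 at 108 ± 28.6 and 108 ± 16.2. The level of Cpt1b, and so its place, is uncertain, because it shares 81.38% of its exonic length with Gm44502. Lengths are medians over the protein-coding transcripts of GENCODE's basic set, so levels of genes with several transcript lengths are approximate.

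**Figure D5:**
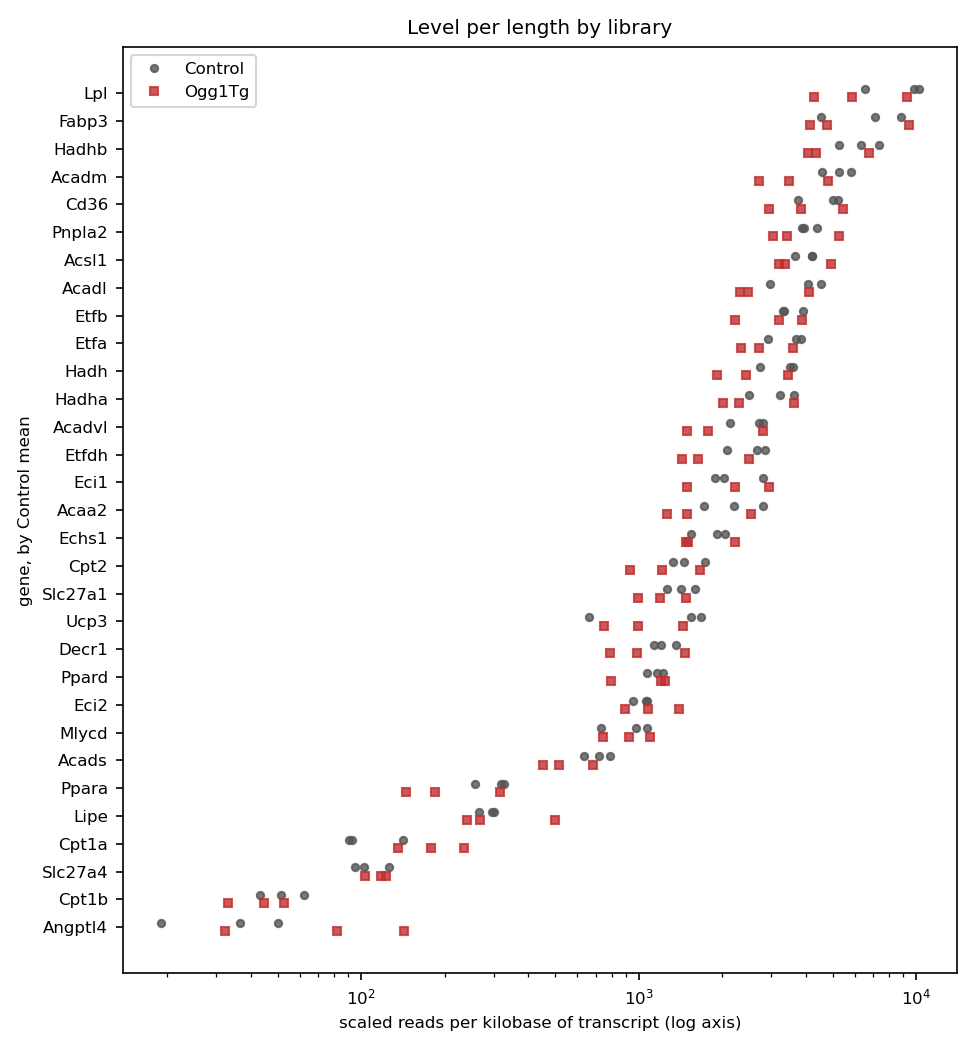
Scaled reads per kilobase of transcript in each library (log axis), with genes ordered by their Control mean. Lpl, Fabp3 and Hadhb lie at the top and Cpt1b and Angptl4 at the bottom, and the points of the Control and Ogg1Tg libraries interleave. The place of Cpt1b is uncertain, because it shares exons with Gm44502.

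The other genes of fatty acid metabolism were read from 5 lists. Of 24 further genes of uptake and lipolysis none was called, with a median log2 fold change of -0.09. Vldlr, the very low density lipoprotein receptor and the highest of them, measured 29089, 27322 and 28235 in Control and 20813, 18075 and 9693 in Ogg1Tg muscle, without overlap (log2 fold change -0.87 ± 0.27 SE, limma adjusted p = 0.273; 0.0283 without Ogg1Tg replicate 3, and 0.0283 to 0.685 over the alternatives). Got2, the next highest, gave -0.28 ± 0.22 (SE).

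Among 20 further genes of activation and carnitine handling, 1 was called. Acsl3, an acyl-CoA synthetase of lipid droplets and the endoplasmic reticulum, fell from 1075, 1162 and 1047 in Control to 563, 676 and 448 in Ogg1Tg muscle, a log2 fold change of -0.98 ± 0.17 (SE, limma adjusted p = 0.0475). It was called in 6 of the 15 other fits run on all or 5 libraries, the call was lost when any 1 Control library or Ogg1Tg replicate 1 was left out and after scaling to equal totals, and adjusted p ran from 0.000142 to 0.349 over the alternatives. Acsl1, by contrast, gave -0.10. The highest genes of the list, Acacb and Crat, were not called, at -0.45 ± 0.24 and -0.57 ± 0.22 (SE).

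The 29 further mitochondrial genes of oxidation had a median of -0.30, with 25 below 0 and none called, and a median of -0.08 without Ogg1Tg replicate 3. Oxct1, of ketone use, gave -0.48 ± 0.28 and Acat1, a thiolase, -0.47 ± 0.20 (log2 fold change ± SE). Acadsb, an acyl-CoA dehydrogenase of branched chains that was chosen after its values were seen, measured 5231, 5929 and 5905 in Control and 4260, 3637 and 3318 in Ogg1Tg muscle, without overlap (log2 fold change -0.61 ± 0.13 SE, limma adjusted p = 0.127; 0.00908 to 0.574 over the alternatives). The 23 peroxisomal genes had a median of -0.04 and none called, with Cat, catalase, at a log2 fold change of 0.11 ± 0.21 (SE).

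Of 32 further PPAR targets and regulators 2 were called, both higher, and the median of the list was -0.05. Acot2, a mitochondrial acyl-CoA thioesterase and PPAR target, rose from 904, 1216 and 885 in Control to 4471, 2306 and 3186 in Ogg1Tg replicates 1, 2 and 3, a log2 fold change of 1.69 ± 0.24 (SE, limma adjusted p = 0.0169). It was called in 11 of the same 15 fits, the call was lost when any 1 Control library was left out, and adjusted p ran from 7.04e-10 to 0.205 over the alternatives. Fgf21, a hormone of metabolic stress, had a single read in all of Control muscle (1 read, in replicate 2) and measured 1125, 800 and 1290 scaled reads in Ogg1Tg muscle (limma adjusted p = 2.85e-05). Angptl4 and Cpt1a, PPAR targets among the 31, also had values above 0, at 1.14 and 0.75, and did not pass. Ucp3 was at -0.22. Of all 31, the fitted value was below 0 for 26 and above 0 for 5 on the deposited scale (52.8% of all genes below 0). After scaling to equal totals it was below 0 for 14 (28.7% of all genes). The part of PPAR in these values was not tested. Prkaa2 and Pdk2, the highest of the list, gave -0.26 ± 0.21 and -0.13 ± 0.25 (SE).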

How the data were processed

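Per the labels' protocols, total RNA was extracted with an RNeasy kit and libraries were built with NuGen Ovation Universal. Trimmomatic, SAMtools, HTSeq and the mm10 build are named, unversioned, in the submitters' processing notes. For the aligner, annotation, strand setting and scaling step, the sources used here give nothing. The deposited values, in files named FPKM, are not FPKM but a signal made of each gene's count over a factor common to the library, whole multiples of 1 step within 0.01 of a read for all low values. For Ogg1Tg replicate 3 the step is 1.006, so its recovery is less distinctive. The test planned for FPKM was kept, since it fits any normalized value.

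Entries without a name (1824 of 37315, 2.38% to 3.54% of reads) were left out. No 2 libraries agreed within sampling noise (chi-square per gene at least 13.9). Genes with a mean of at least 1 were tested with limma 3.58.1 (R 4.3.3) on log2(value + 1), which understates the change of low genes, over all 6 libraries with a variance trend and two-sided tests with Benjamini-Hochberg adjustment. The code was tested on simulated data, in which the limma fit called 34% of 100 genes changed 2-fold and 83% of 100 changed 4-fold. A change of 2-fold or less could thus often be missed. Alternatives were median-of-ratios and quantile scaling, a pseudocount of 0.1, a minimum mean of 10 or none, no variance trend, a replicate block, edgeR 4.0.16 and DESeq2 1.42.0 on recovered reads, and each library left out. Another 4, marked in the closing section, were added after seeing the data. Coordinates, lengths and overlaps come from GENCODE M21 (GRCm38, the same assembly as mm10), and promoters from RefSeq.

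The 31 genes and the lists were chosen with earlier results of these data known. Named are all 31, and from each other list every called gene and the 2 with the highest mean, of which 1 gene is not reported here. Myh2, Myh1, Mb, Dvl2 and Acadsb, and in the closing section Slc27a3, Pnpla8, Abhd5, Abcd2, Nudt19, Mut, Acot1 and G0s2, fall outside this rule and were picked with their values known. No set test was run.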

Additional observations from a re-analysis of the deposited data

How the results depend on the processing

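None of the 31 genes was called in the 15 planned or the 4 added fits, and 14 of them lay below 0 and 3 above 0 in all 19. The median of the 31, -0.24, ran from -0.457 to -0.0902 as each library was left out and was 0.008 after scaling to equal totals. The number of genes called, 127, was 46 without the variance trend, 552 with DESeq2, 35 to 425 as each library was left out (425 without Ogg1Tg replicate 3), and, in both cases leaving out Ogg1Tg replicate 3, 362 with edgeR and 405 after median-of-ratios rescaling. The number called in the 5 other lists, 3, was 1 without the variance trend, 6 with DESeq2, 1 to 6 as each library was left out, and 5 with median-of-ratios rescaling without Ogg1Tg replicate 3. The cause of these moves was not tested. Fits without Ogg1Tg replicate 3 by edgeR or with rescaling, the hepatocyte term and the equal totals were added after seeing the data. Same-numbered replicates did not deviate together (r = -0.053, -0.005 and 0.031). The replicate block called 102 genes, 0 of the 31, left their median at -0.24 and lost the call of Acsl3. The lowest count of the 31 genes in any library was 48 reads, in Angptl4, and whether depth limited the calls was not tested.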

Other observations

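Several genes next to the 31 in fat handling had groups that did not overlap, yet failed the limma test. Groups did not overlap for 18.3% of all genes, and for 6 of 24 further genes of uptake and lipolysis, 3 of 20 of activation and carnitine handling, 9 of 29 of mitochondrial oxidation, 8 of 23 of the peroxisomal list and 7 of 32 PPAR targets and regulators. The genes below were chosen after their values were seen. Slc27a3, a member of the fatty acid transport family with acyl-CoA synthetase activity, measured 118, 138 and 84.8 scaled reads in Control and 34.4, 45.0 and 55.3 in Ogg1Tg replicates 1, 2 and 3 (log2 fold change -1.32 ± 0.32 SE, limma adjusted p = 0.163). Without Ogg1Tg replicate 3 its adjusted p was 0.0479, within a range of 0.0433 to 0.615 over the alternatives. Abhd5, the activator of adipose triglyceride lipase, measured 1302 ± 60.7 in Control and 933 ± 145 in Ogg1Tg muscle, and Pnpla8, a mitochondrial phospholipase, 12104 ± 456 and 8651 ± 1178 (SD, n = 3; limma adjusted p = 0.254 and 0.252). G0s2, the inhibitor of adipose triglyceride lipase, was at 190, 407 and 266 in Control and at 826, 349 and 618 in Ogg1Tg muscle, with overlap (log2 fold change 1.04 ± 0.35 SE, limma adjusted p = 0.322). Pnpla2, which encodes that lipase, was at -0.10 ± 0.20 (SE).

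Acot1, the cytosolic neighbour of Acot2 on chromosome 12, measured 173, 221 and 142 in Control and 650, 288 and 486 in Ogg1Tg muscle (log2 fold change 1.35 ± 0.30 SE, limma adjusted p = 0.131). For Acot1 the adjusted p was 0.000806 with DESeq2 and 0.142 with limma after scaling to equal totals. As each library was left out of the limma fit, its lowest adjusted p was 0.0285. Acot1 and Acot2 are close in sequence, and reads could be split between them, so their levels are uncertain. Both were highest in Ogg1Tg replicate 1 and lowest of the Ogg1Tg libraries in replicate 2. Of the peroxisomal list, Abcd2, a carrier of very long acyl groups, and Nudt19, a coenzyme A hydrolase, gave -0.45 ± 0.13 and -0.68 ± 0.20 (log2 fold change ± SE), and Mut, the mitochondrial methylmalonyl-CoA mutase, gave -0.43 ± 0.14. Limma adjusted p-values were 0.231, 0.241 and 0.309.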
